A study of Mus musculus with 8 samples.

Results

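The nuclear genome encodes most subunits of the oxidative phosphorylation machinery, and the transcripts of these subunits were followed in leukocytes from inflamed mouse paws. The members were all gene rows with a name that starts with Ndufa, Ndufb, Ndufc, Ndufs, Ndufv, Uqcr, Cox4i, Cox5, Cox6, Cox7, Cox8 or Atp5. This rule took 89 of the 28434 gene rows, and 86 of the 89 had at least 1 UMI (a unique molecular identifier, which counts 1 captured RNA molecule). Cox4i2, Cox7b2 and Cox8c had none. By function, 44 members belong to complex I, 8 to complex III, 20 to complex IV and 17 to complex V. The name rule also took 8 complex I assembly factors (Ndufaf1 to Ndufaf8), which help to build the complex and are not part of it, and Cox7a2l, which links respiratory complexes. Ndufa4 carries a complex I name and was counted with complex IV, where its protein is found.

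Complex I takes electrons from NADH, complex III passes them from ubiquinol to cytochrome c, and complex IV hands them to oxygen. Each of these complexes moves protons across the inner mitochondrial membrane, and complex V, the ATP synthase, uses the returning protons to make ATP. The mitochondrial genome encodes 13 further subunits (the mt- genes), which sit in the catalytic heart of the same complexes, so every complex named here is built from both genomes. Neutrophils are known for few mitochondria and a strong reliance on glycolysis. Their precursors in the bone marrow hold more mitochondria.

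The cells came from the paws of C57BL/6 mice aged 10 weeks in which arthritis was kept up with K/BxN serum, an antibody-rich serum of spontaneously arthritic mice, given intraperitoneally on days 0, 2 and 9 (100 µL each). Each mouse then received, intravenously on day 12, bone marrow monocytes of arthritic C57BL/6 donors. The monocytes had been held for 90 min with vehicle (Mono, 4 mice) or with 1 nM MCTR3, a lipid mediator of the maresin conjugates in tissue regeneration family (Mono+MCTR3, 4 mice). On day 22 CD45+ cells, the leukocytes, were sorted and profiled by droplet-based 3′ single cell RNA sequencing. All mice thus shared arthritis and a monocyte transfer, there was no group without either, and transferred cells were not told apart here from cells of the host. Mice are numbered here by the suffix of the cell barcodes, 1 suffix for each mouse of a group.

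After the filters, a range of 250 to 3000 genes, a minimum of 500 UMIs and a maximum of 5% mt- UMIs, 10256 of 10538 cells were kept, 5241 from Mono and 5015 from Mono+MCTR3 mice. The UMIs per mouse ranged from 2602412 to 3832301 in Mono and from 1731045 to 6009009 in Mono+MCTR3. Any 2 mice of a group shared at most 7 barcodes. The cells were clustered with the members and the mt- genes left out, and each cluster was named after its best marker list, so that a class name stands for cells like that type. The classes compared were neutrophils (6945 cells), B cells (1408), T cells (763), NK cells (633) and MDM (351), the last being a macrophage cluster of 303 cells joined to a nonclassical monocyte cluster of 48. The macrophage cluster scored 0.884 on the macrophage list and 0.854 on the classical monocyte list, so its cells may include monocytes. Its leading genes held C1qb of the first list and F13a1 of the other. The summed neutrophil markers (S100a8 and others) reached 2620 to 4450 UMIs per 10,000 in neutrophils and 17.4 to 151 in the other classes. The B cell markers summed to 1.41 to 2.10 per 10,000 in neutrophils against 204 to 250 in B cells.

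The members held 411488 of 26420247 UMIs, or 1.56%. Complex I members gave 29.9% of these, complex III 10.2%, complex IV 30.4% and complex V 29.5%. The 3 members with the most UMIs were Ndufa3, Ndufa13 and Ndufa2 in complex I, Uqcrh, Uqcrq and Uqcr10 in complex III, Cox4i1, Cox8a and Cox6b1 in complex IV, and Atp5l, Atp5e and Atp5h in complex V. Atp5l, subunit g of the membrane part of the ATP synthase, was the most counted member with 21936 UMIs, ahead of Cox4i1, the largest nuclear subunit of cytochrome c oxidase, with 20792.

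Neutrophils gave the smallest share of their UMIs to the members. The member share in neutrophils ran from 1.126% to 1.271% over the 8 mice, with a median of 1.193%. It ran from 1.730% to 1.769% (median 1.742%) in B cells, from 1.761% to 1.965% (median 1.816%) in T cells, from 2.095% to 2.354% (median 2.257%) in NK cells and from 2.287% to 2.954% (median 2.673%) in MDM. The neutrophil values lay below those of every other class in all 8 mice. B and T cells overlapped, NK and MDM overlapped, and no T cell value reached an NK value.

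This order depended on what stood in the denominator. The 20 genes with the most UMIs over all cells, led by neutrophil transcripts, took 49.0% of the neutrophil UMIs (range over mice 42.8% to 54.9%). In the other classes their mean share was 9.05% to 13.6%. Without these 20 genes the mean member share was 2.35% in neutrophils, above B cells (2.01%) and T cells (2.01%) and below NK cells (2.53%) and MDM (3.08%). Without ribosomal protein and mt- genes it was 1.25% in neutrophils, 2.44% in B cells, 2.97% in NK cells, 3.30% in T cells and 3.41% in MDM. In absolute terms a neutrophil held on average 26.3 member UMIs, a B cell 41.2, an NK cell 61.1, a T cell 66.2 and an MDM cell 168.5, and the mean total rose from 2206 UMIs per neutrophil to 6301 per MDM cell.

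**Figure D1:**
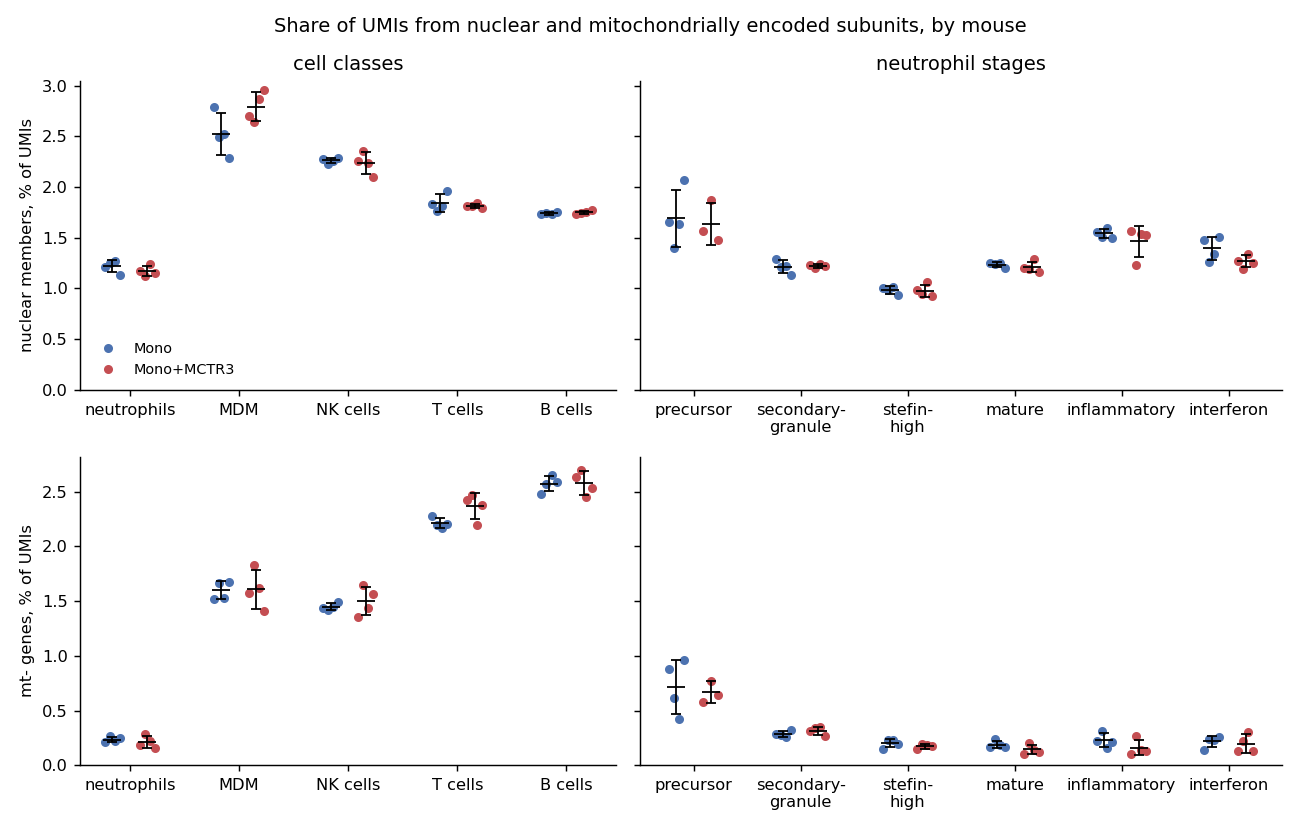
Percent of UMIs held by the 89 nuclear members (top) and by the mt- genes (bottom) in the cell classes and neutrophil stages, 1 point per mouse, with the mean and SD of each group as a cross-bar and error bar. The nuclear share was 1.126% to 1.271% in neutrophils and at least 1.730% in the other 4 classes, while the mt- share was 0.159% to 0.285% in neutrophils.

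The mitochondrially encoded subunits were far scarcer in neutrophils. The mt- share was 0.159% to 0.285% in neutrophils (median 0.220%), 1.354% to 1.644% in NK cells, 1.405% to 1.832% in MDM, 2.165% to 2.468% in T cells and 2.447% to 2.693% in B cells, with no overlap between neutrophils and any other class. The count of nuclear member UMIs for each mt- UMI was therefore 3.954 to 7.28 in neutrophils (mean 5.51 ± 1.06, SD, n = 8). It was 1.363 to 2.103 in MDM, 1.341 to 1.67 in NK cells, 0.736 to 0.890 in T cells and 0.647 to 0.719 in B cells. This ratio does not depend on the denominator. It does rest on the 5% limit on mt- UMIs, which alone removed 202 cells and cut off the upper end of the mt- share in the other classes. mt-Atp6, the proton channel subunit of the ATP synthase, had 2.19 to 4.74 UMIs per 10,000 in neutrophils (median 3.52) and 53.7 to 61.6 in T cells (median 56.7). The 12 of 13 mt- genes that passed the filter on low counts were all lower in neutrophils than in each of the other 4 classes (edgeR quasi-likelihood test on sums per mouse, Benjamini-Hochberg adjusted p under 0.05). Their median log2 fold change was -2.43 against T cells, -2.42 against B cells, -1.53 against MDM and -1.51 against NK cells.

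Gene by gene, 76 of the 89 members passed the filter on low counts, among 4842 genes tested. The 13 that did not were Ndufaf1, Ndufaf2, Ndufaf5, Ndufaf6, Atp5s, Cox6a2, Cox6b2, Cox7a1, Cox8b, Ndufa4l2 and the 3 members with no UMI. The scaling by trimmed means (TMM) used here sets the typical gene to no change, so a fold change says how a member differed relative to the typical gene of that comparison. With it, 37 members were higher in neutrophils than in T cells and 32 lower, whereas scaling by library totals gave 8 and 52 and totals without ribosomal protein and mt- genes gave 0 and 73. Among all genes 40.2% were higher and 42.4% lower under TMM, so the members split much as the background did. Against B cells 42 members were higher and 25 lower, beside 38.9% and 44.8% of all genes, and library totals gave 8 and 53. Against MDM 27 were higher and 35 lower, beside 38.9% and 38.4%, and library totals gave 0 and 72. Against NK cells 35 were higher and 28 lower, beside 38% and 42.9%, and library totals gave 2 and 70. Library totals moved the median of all genes to -1.19 against MDM, -1.28 against B cells, -0.99 against T cells and -1.39 against NK cells on the log2 scale.

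On the TMM scale the members' differences from T cells spread from -5.26 to 1.89. Their interquartile range was 1.62 log2 units, against 2.58 for all genes tested. Ndufb9, Ndufb7 and Ndufaf7 had the largest fold changes toward neutrophils. Ndufb9, an accessory subunit of the membrane arm of complex I, had 1.62 to 2.14 UMIs per 10,000 in neutrophils (median 1.93) and 0.801 to 1.19 in T cells (median 0.969). Every neutrophil value lay above every T cell value. The log2 fold change was 1.89 ± 0.11 (SE, adjusted p = 2.277e-20, edgeR quasi-likelihood test with Benjamini-Hochberg adjustment). Ndufb7, another membrane arm subunit, had 2.05 to 2.45 per 10,000 (median 2.27) against 0.920 to 1.98 (median 1.27), and its log2 fold change was 1.72 ± 0.09. Ndufaf7, a complex I assembly factor, was at 0.118 to 0.304 against 0.0532 to 0.163, with a log2 fold change of 1.68 ± 0.24. With totals without ribosomal protein and mt- genes the fold change of Ndufb9 was 0.15 and no longer passed, and those of Ndufb7 and Ndufaf7 turned to -0.03 and -0.04.

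The members lowest in neutrophils kept that direction under every scaling tried. Ndufaf4, a complex I assembly factor, had 6 UMIs in all neutrophils and 108 in all T cells, at 0 to 0.0170 against 0.204 to 0.618 per 10,000, and its log2 fold change was -5.26 ± 0.34. Atp5g2 encodes subunit c, which forms the rotating ring of the ATP synthase. It had 0.273 to 0.520 UMIs per 10,000 in neutrophils (median 0.410) and 3.26 to 5.07 in T cells (median 4.07). No neutrophil value came near a T cell value, and the log2 fold change was -2.38 ± 0.12 (adjusted p = 3.527e-22, edgeR quasi-likelihood test). Ndufa5, an accessory subunit of the matrix arm, was at 0.0352 to 0.174 against 0.771 to 1.43 (log2 fold change -2.12 ± 0.16). By kind of subunit, the 7 core subunits of complex I, which carry the electrons, had a median log2 fold change of -0.71 against T cells. The other 64 regular subunits tested had 0.34. Against B cells these medians were -0.81 and 0.65, against NK cells -0.52 and 0.33, and against MDM -0.97 and -0.07.

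**Figure D2:**
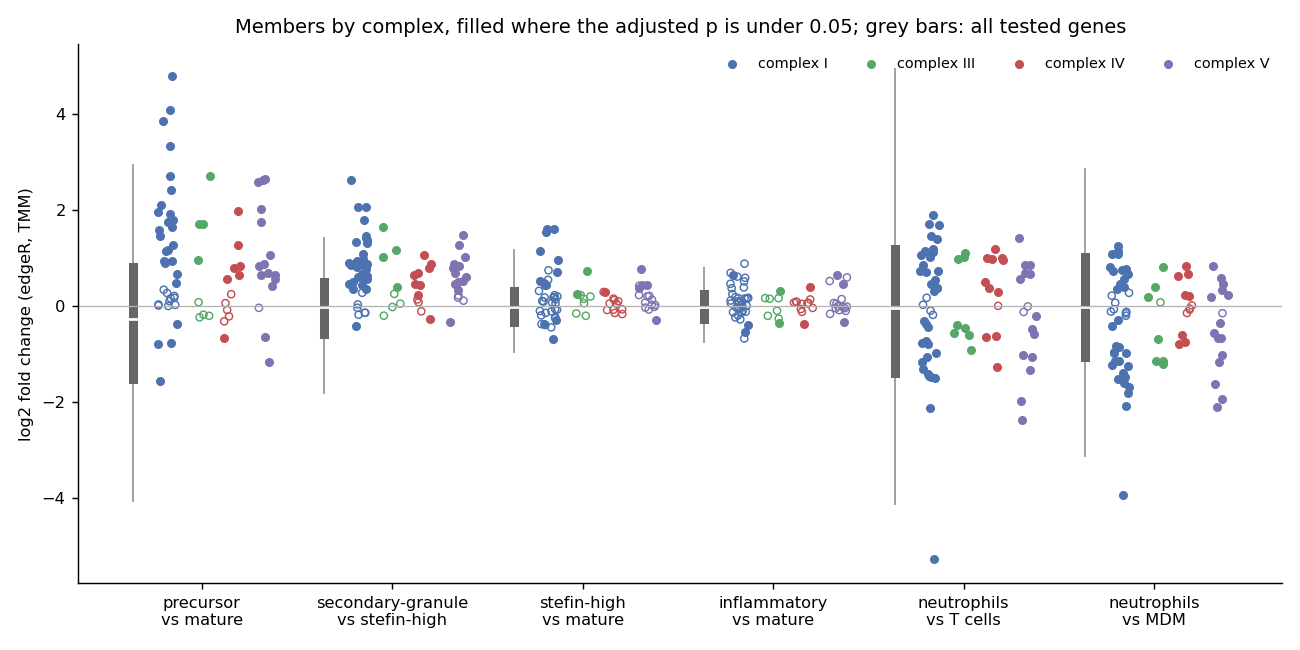
Log2 fold change (edgeR, TMM) of each tested member, 1 point per gene coloured by complex and filled where the adjusted p is under 0.05, between neutrophil stages and in neutrophils against T cells and MDM, with grey bars for all tested genes (white line at the median, thick bar for the interquartile range, thin line from the 5th to the 95th percentile). Values of the tested members ran from -5.26 (Ndufaf4) to 1.89 (Ndufb9) against T cells and from -1.56 (Ndufa7) to 4.78 (Ndufa5) between precursor and mature neutrophils.

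Within the ATP synthase 6 of 16 tested genes were higher and 8 lower in neutrophils than in T cells on the TMM scale. Of all genes 40.2% were higher and 42.4% lower, so this split was near the background. All 3 genes that encode subunit c were scarce in neutrophils. Atp5g1 was at 0.237 to 0.405 UMIs per 10,000 against 2.05 to 2.76 in T cells (log2 fold change -1.98), and Atp5g3 at 0.252 to 0.459 against 1.02 to 1.66 (-1.05). The genes for subunits alpha and beta of the catalytic head, chosen after their values were seen, were also lower. Atp5a1 was at 0.492 to 0.613 against 2.23 to 3.39 (-1.33), and Atp5b at 1.82 to 2.27 against 5.09 to 7.07 (-0.58). Atp5l went the other way at 7.27 to 10.4 (median 9.27) against 5.83 to 7.18 (median 6.39), with a log2 fold change of 1.42. Atp5e, the epsilon subunit of the central stalk, had 4.27 to 5.05 against 5.07 to 6.23 per 10,000, so it was lower as a share of UMIs and higher (0.69) relative to the typical gene. Atp5h, subunit d of the peripheral stalk, was at 2.38 to 3 against 4.74 to 6.93 with a log2 fold change of -0.12.

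In complex IV, Cox4i1 had 5.77 to 6.56 UMIs per 10,000 in neutrophils and 8.92 to 9.99 in T cells, lower as a share and 0.38 higher on the TMM scale. Cox8a, a small membrane subunit, overlapped at 5.73 to 7.55 against 5.72 to 6.87. Cox6b1, which faces the intermembrane space, did as well at 3.45 to 4.33 against 3.23 to 4.46. Cox7a2l was at 1.45 to 2.42 in neutrophils and 6.79 to 9.57 in T cells (log2 fold change -1.26), while Cox7a2, the subunit it resembles, had a log2 fold change of 1.19. Cox7b was also lower in neutrophils (-0.63), and Cox7c did not pass (0.01). In complex III, Uqcrh, the acidic hinge subunit next to cytochrome c1, was at 2.71 to 3.33 against 7.20 to 9.51 (-0.45). Its neighbours in rank Uqcrq and Uqcr10 overlapped between the classes at 1.83 to 2.53 against 1.56 to 2.16 and at 1.87 to 2.42 against 1.86 to 2.64. In complex I, Ndufa3 was at 3.83 to 4.85 against 2.61 to 3.51, Ndufa13 overlapped at 2.90 to 3.93 against 2.92 to 3.99, and Ndufa2 was at 2.14 to 2.50 against 2.92 to 3.98. Counts from the 3′ end were not corrected for length, and genes with near-identical copies elsewhere in the genome, as several of these short genes have, may have lost reads.

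The tissue isoforms of complex IV were rare, with a clear exception. Cox6a2, the heart and muscle form of subunit 6a, had 660 UMIs in 93 cells. In the plasmacytoid dendritic cell cluster (26 cells of 8 mice) 25 cells held 234 of these UMIs, with 0 to 19 per cell and a median of 9. That was 16.3 UMIs per 10,000 (95% exact Poisson interval 14.3 to 18.5, which covers counting error only), from 13.7 to 33.7 over the mice. The common form Cox6a1 was at 4.6 (3.55 to 5.85) in the same cells. In B cells 35 Cox6a2 UMIs lay in 29 of 1408 cells, or 2.06% of cells (exact binomial interval 1.38% to 2.95%, median depth 2249 UMIs), and in neutrophils outside the precursor cluster 3 UMIs lay in 6900 cells, or 0.0435% of cells (median depth 1712 UMIs). A small unnamed cluster of 28 cells had 52 Cox6a2 UMIs in 2 cells, with up to 31 in a cell. The median depth of the plasmacytoid cells was 5468 UMIs. Muscle RNA was present in this preparation, so the muscle markers were counted in the same cells. The 8 plasmacytoid cells without any muscle marker UMI all held Cox6a2, with 85 UMIs in all. The other 18 held 23 muscle marker UMIs together, none of them of the muscle genes Acta1 and Mb. Of these 18 cells 17 held Cox6a2, with 149 UMIs. A further cluster of 33 cells mixed 4 cells with Acta1, the skeletal muscle actin, which held 81 Cox6a2, 48 Cox7a1 and 35 Cox8b UMIs, with 23 cells that had Siglech, a plasmacytoid marker, and no Acta1. Those 23 held 238 Cox6a2 UMIs in 19 cells and no Cox7a1 or Cox8b. In this cluster the muscle forms Cox7a1 and Cox8b thus appeared with Cox6a2 in cells with Acta1 and not in cells with Siglech alone.

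Cox6b2, known as a testis form of subunit 6b, had 170 UMIs in all. Of these, 76 lay in 57 of 303 cells of the macrophage cluster, or 18.8% of cells, at 0.374 UMIs per 10,000. Small unnamed clusters of 22 and 28 cells were higher, at 0.857 (15 UMIs in 6 cells) and 0.561 (12 UMIs in 4 cells). The precursor neutrophils were alike at 0.396 per 10,000 (21 UMIs in 12 of 45 cells), whereas the other neutrophils had 0.0128 (19 UMIs in 17 of 6900 cells). The median depth was 6795 UMIs in the macrophage cluster and 1712 in the other neutrophils. No Cox6b2 UMI was found in the 48 nonclassical monocytes. Ndufa4l2, a paralog of Ndufa4 known for its response to low oxygen, had 11 UMIs in 2 neutrophils and 4 in 1 fibroblast.

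**Figure D3:**
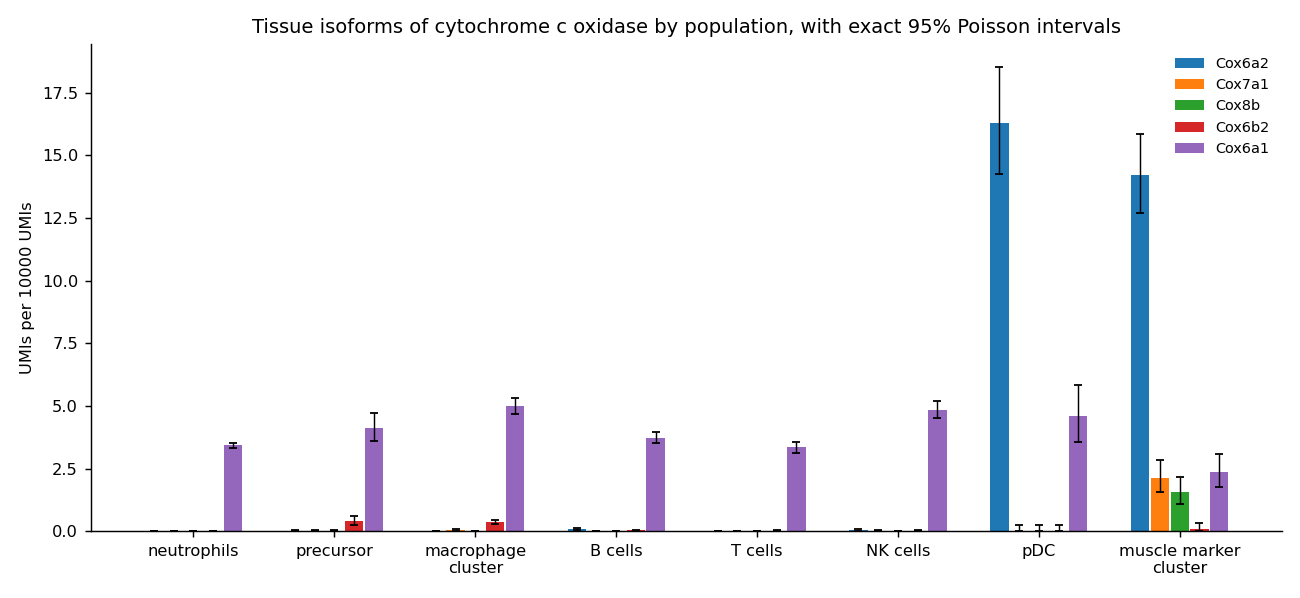
UMIs per 10,000 of 4 tissue isoforms of complex IV and of the common form Cox6a1 in each population, with exact 95% Poisson intervals for counting error, where pDC are plasmacytoid dendritic cells and the muscle marker cluster is the mixed cluster of 33 cells. Cox6a2 reached 16.3 in pDC, above Cox6a1 at 4.6 in the same cells, and Cox6b2 was at 0.374 in the macrophage cluster and 0.396 in the precursors.

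Neutrophil clusters were named for 6 stages that were ordered by maturity from their marker lists: a granule-forming precursor cluster (45 cells of 7 mice), a secondary-granule immature cluster (629), a stefin-high maturing stage (2301 cells), a mature cluster (2065), an inflammatory cluster (1554) and an interferon response cluster (351). The stefin-high stage joined clusters of 1647 and 654 cells. The cluster of 654 cells had secondary-granule immature as its second-best stage. On the mature list the mature cluster scored 0.80. The inflammatory cluster (0.92) and the interferon response cluster (0.895) scored higher on it and had mature as their second-best stage. The name mature thus does not place its cells after those of the other 2 clusters. The stages are clusters of the cells compared, so differences between them describe an order that the marker genes set. The precursor cluster was mixed. Of its 45 cells, 39 had a UMI of Ltf (the secondary granule protein lactoferrin), 39 had Mki67 (a proliferation marker), 7 had under 5% of their UMIs in S100a8 and S100a9, and 3 had over 50% in globin genes. Only 6 had 10 or more UMIs of Elane, a marker of this stage. Prss34 and Mcpt8, listed as mast cell or basophil markers, were among the leading genes of the cluster. The summed NK cell markers reached 19.4 UMIs per 10,000 in the highest mouse (median 0.179), and the B cell markers 12.8 (median 1.18). Mouse 4 of Mono+MCTR3 gave no precursor cells and mouse 2 of Mono gave 1.

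The member share followed a dip across these stages. It was 1.399% to 2.074% in precursors (median 1.639%), 1.138% to 1.292% in the secondary-granule stage (median 1.219%), 0.925% to 1.062% in the stefin-high stage (median 0.985%), 1.165% to 1.289% in mature cells (median 1.220%), 1.235% to 1.599% in inflammatory cells (median 1.532%) and 1.196% to 1.503% in interferon cells (median 1.309%). The precursor values lay above and the stefin-high values below those of the secondary-granule and mature stages in every mouse, and the secondary-granule and mature stages overlapped. The 20 most counted genes took 43.9%, 58.2%, 55.9%, 43.6%, 31.7% and 37.6% of UMIs in the same order of stages. Without them the mean member share was 2.98%, 2.92%, 2.23%, 2.17%, 2.20% and 2.13%, an early high level and a later plateau without the dip. Per cell the mean fell from 201 member UMIs in precursors to 64.4, 23.9 and 18.7 in the next stages, and was 21.2 in inflammatory and 19.5 in interferon cells. Total depth fell as well, with a median of 12885 UMIs per cell in precursors and 5062 in the secondary-granule stage. In the clusters joined as stefin-high it was 3231 and 2071, and in mature cells 1452. Inflammatory cells had a median depth of 1292 and interferon cells of 1387.

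The mt- share fell further than the nuclear share. Its mean was 0.696% in precursors, 0.302% in the secondary-granule stage, 0.189% in the stefin-high stage and 0.168% in mature cells, and 0.196% and 0.208% in inflammatory and interferon cells. The nuclear UMIs for each mt- UMI went from 1.885 to 3.9 in precursors to 3.492 to 4.689, 4.215 to 6.741 and 5.197 to 11.19 in the next 3 stages. The precursor range overlapped that of the secondary-granule stage slightly and lay below those of the stefin-high and mature stages. mt-Co1, the catalytic subunit of complex IV, was at 11 to 24.7 UMIs per 10,000 in precursors (median 15.7) and 3.88 to 6.79 in mature cells (median 5.08), with a log2 fold change of 1.52. All 9 mt- genes tested were higher in precursors than in mature cells by the edgeR test.

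Of the 89 members 73 passed the filter for the stage tests, among 3063 genes. From precursor to mature, 46 members were higher in the precursor and 7 lower (beside 28.6% and 39.8% of all genes), with a median log2 fold change of 0.79 for the members and -0.28 for all genes. Library totals gave 47 and 6. With members and mt- genes kept among the genes used for clustering, the counts were 37 and 16 with a member median of 0.38. Without mouse 2 of Mono+MCTR3, which gave 16 of the 45 precursor cells, they were 40 and 11. Without the 7 precursor cells low in S100a8 and S100a9 the counts were 45 and 8. The summed erythroid markers reached 1570 UMIs per 10,000 in precursors (median over mice 1.12) and at most 1.64 in mature cells. Their part in these counts was not tested beyond that. Complex I gave 22 higher and 4 lower among its 34 tested subunits, complex III 4 and 0 of 8, complex IV 6 and 1 of 12 and complex V 13 and 2 of 16. The core subunits of complex I had a median log2 fold change of 1.77 and the other regular subunits 0.69.

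The members with the largest fold changes toward precursors were all accessory subunits of complex I. Ndufa5 had 0.510 to 1.29 UMIs per 10,000 in precursors (median 1.05) and 0 to 0.0836 in mature cells (median 0.0273). This rests on 51 UMIs in precursors and 8 in mature cells, and the log2 fold change was 4.78 ± 0.46 (adjusted p = 2.281e-14, edgeR quasi-likelihood test). Ndufc2, at the membrane arm, had 1.33 to 2.10 (median 1.46) against 0.0267 to 0.0930 (median 0.0712), a log2 fold change of 4.08 ± 0.33. Ndufa11, also of the membrane arm, had 0.588 to 2.59 (median 1.25) against 0.0267 to 0.196 (median 0.0856), a log2 fold change of 3.86 ± 0.33. No precursor value of these 3 genes fell as low as a mature value. Uqcrb, a complex III subunit near the quinone site that was chosen after its values were seen, was at 2.26 to 3.98 against 0.277 to 0.641 (2.70 ± 0.18). The subunit c gene Atp5g2 was at 0 to 4.43 against 0.223 to 0.499 and overlapped, with a log2 fold change of 2.65 ± 0.27.

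A smaller set ran in the opposite direction. Ndufa7, an accessory subunit of the matrix arm, had 0.588 to 1.63 UMIs per 10,000 in precursors (median 1.05) and 2.64 to 3.87 in mature cells (median 3.16). Its log2 fold change was -1.56 ± 0.19 (adjusted p = 9.787e-11, edgeR quasi-likelihood test). Atp5l had 4.39 to 7 (median 4.88) against 9.78 to 11.6 (median 10.8), a log2 fold change of -1.17 ± 0.11. Both sets of values were apart in all mice. Ndufb9 was at 1.05 to 1.83 (median 1.43) against 1.85 to 2.79 (median 2.43), a log2 fold change of -0.79 ± 0.18. Cox8a was at 4.29 to 6.53 against 6.86 to 9.31, a log2 fold change of -0.67 ± 0.11. Among the other most counted members, Ndufa13 (-0.77), Atp5e (-0.63) and Ndufa3 (-0.38) were also lower in precursors, and Atp5h was higher (0.87). Cox4i1 (-0.08), Cox6b1 (-0.21), Ndufa2 (0.03), Uqcrh (-0.23), Uqcrq (-0.18) and Uqcr10 (0.08) did not pass the test.

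**Figure D4:**
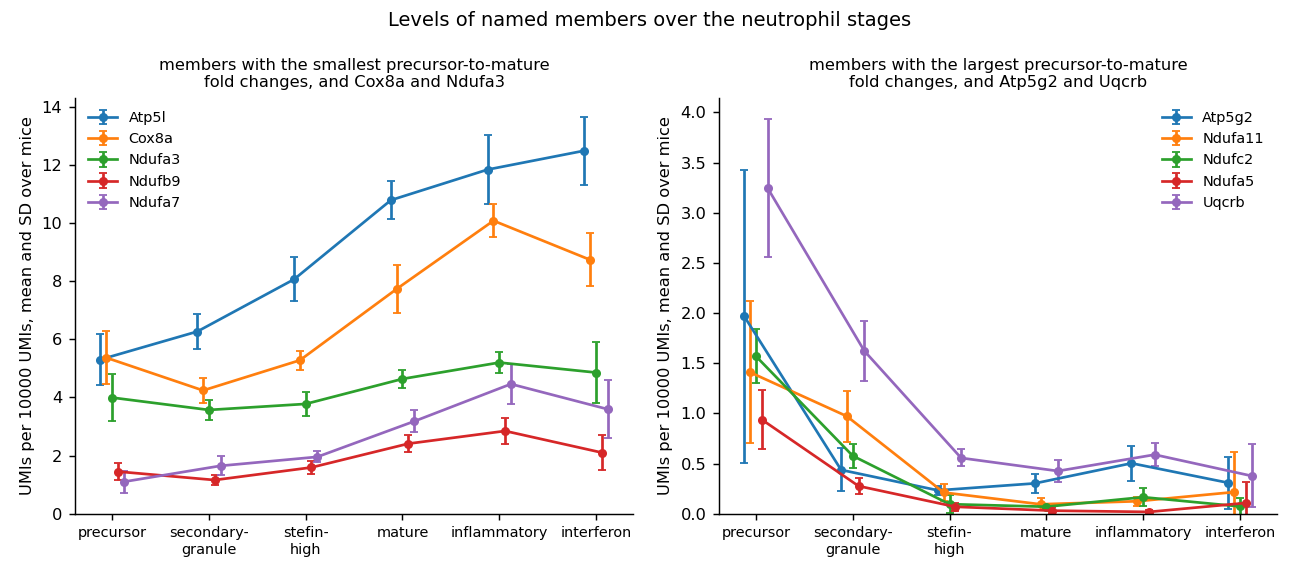
Mean UMIs per 10,000 of named members over the neutrophil stages, with SD over mice (7 mice for the precursor, 8 for the others), and a separate vertical scale in each panel. On the left Atp5l reached 9.78 to 11.6 in mature cells from 4.39 to 7 in precursors, and on the right Ndufa5, Ndufc2 and Ndufa11 were near 0 from the stefin-high stage on.

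The promoter sequences of the genes at both ends of this order are shown so that the regions upstream of rising and falling members can be compared. Each line gives the 150 bases before the transcription start in RefSeq (assembly GRCm38.p6), 5′ to 3′ on the strand of the gene, and the most upstream start was taken for Ndufa5 and Ndufa7, which have 2 listed. Capitals mark matches to 1 of 4 motifs on either strand: GCGCATG (NRF1), CCGGAAG (ETS), AAGATGG (YY1) and AAGGTCA (ERR). The first 3 genes were higher in precursors, at chr6:24527691-24527840 (minus strand), chr7:97399853-97400002 (plus) and chr17:56717612-56717761 (plus). The last 2 were higher in mature cells, at chr17:33824422-33824571 (plus) and chr9:44920743-44920892 (minus). Ndufb9, also higher in mature cells, had no entry in the promoter set used and is not shown.
Ndufa5: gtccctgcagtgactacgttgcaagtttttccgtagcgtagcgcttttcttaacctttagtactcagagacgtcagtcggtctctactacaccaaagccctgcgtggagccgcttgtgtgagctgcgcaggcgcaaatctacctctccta
Ndufc2: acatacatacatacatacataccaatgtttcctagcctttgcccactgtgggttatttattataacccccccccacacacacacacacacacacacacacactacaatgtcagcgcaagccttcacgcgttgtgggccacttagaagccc
Ndufa11: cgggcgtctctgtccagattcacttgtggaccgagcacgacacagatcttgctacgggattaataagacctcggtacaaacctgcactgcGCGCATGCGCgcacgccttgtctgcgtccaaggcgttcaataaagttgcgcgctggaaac
Ndufa7: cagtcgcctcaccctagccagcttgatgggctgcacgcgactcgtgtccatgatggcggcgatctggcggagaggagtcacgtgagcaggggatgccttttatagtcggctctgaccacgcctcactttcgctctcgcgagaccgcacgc
Atp5l: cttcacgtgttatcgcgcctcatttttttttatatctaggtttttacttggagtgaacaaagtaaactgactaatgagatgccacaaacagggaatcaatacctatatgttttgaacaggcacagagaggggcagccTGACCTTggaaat
Of these 5 windows, that of Ndufa11 held the NRF1 letters on both strands, which overlap, and that of Atp5l held the ERR letters on the opposite strand. In windows of 300 bases (250 before and 50 after the start), 71 members were matched by symbol. The NRF1 letters were in 14 of these (19.7%) and in 4.41% of 27025 genes, the ETS letters in 16 (22.5%) and 9.93%, the YY1 letters in 11 (15.5%) and 7.28%, and the ERR letters in 7 (9.86%) and 5.38%. At least 1 of the 4 was in 37 members (52.1%) and in 24% of genes. Among the 5 genes shown, the window of 300 bases of Atp5l held the NRF1, ETS and ERR letters. That of Ndufa11 held the NRF1 letters, and those of Ndufa5, Ndufc2 and Ndufa7 held none of the 4. These are matches of letters and were not tested as binding.

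From the secondary-granule to the stefin-high stage, 53 members were higher in the earlier stage and 3 lower (28.4% and 31% of all genes), with a median of 0.61 for the members and -0.02 for all genes. The leading members were again Ndufc2 (2.62 ± 0.23), Ndufa5 (2.07) and Ndufa11 (2.06), and the 3 lower were Ndufb9 (-0.41), Atp5l (-0.33) and Cox8a (-0.26). Library totals gave 52 and 4. From precursor to secondary-granule cells 18 members were higher in the precursor and 13 lower (16.5% and 33.6% of all genes), while library totals gave 47 and 3 and DESeq2 gave 34 and 4, so that the split depended on the scaling. It was 8 and 19 without the filter on low counts, and 7 and 20 without mouse 2 of Mono+MCTR3. From stefin-high to mature cells 16 were higher in the earlier stage and 4 lower (20.6% and 19.3% of all genes), but library totals turned this to 4 and 35, and DESeq2 gave 14 and 12. In the earlier stage Ndufa11 (1.61), Ndufv3 (1.60, chosen after its values were seen) and Ndufa5 (1.54) led this last comparison. The shares of all genes given for classes and stages are those under TMM. Counts under other settings have no such share beside them, so they show only how the split moved with the setting.

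Relative to the typical gene, few members differed between inflammatory and mature cells. By edgeR with TMM 5 members were higher and 5 lower (10.3% and 12.1% of all genes), while library totals gave 35 and 0. No share of all genes is given under library totals, so that count is not read as a result about the members. Ndufb5 (0.65), Atp5o (0.64), Atp5mpl (0.46), Cox6a1 (0.40) and Uqcr11 (0.32) were higher, and Ndufb11 (-0.54), Ndufa8 (-0.38), Cox7c (-0.37), Uqcr10 (-0.36) and Atp5f1 (-0.33) were lower, as log2 fold changes. They are given as the whole of the count, after their values were seen. The macrophage markers summed to 4.69 to 7.07 UMIs per 10,000 in inflammatory cells and 2.6 to 4.23 in mature cells, against 23.6 to 76 in MDM. Mrc1, Ms4a7 and Trem2 of this list had no UMI in inflammatory cells. The part of these markers in the differences was not tested. Between interferon and mature cells edgeR called 0 members (2.38% of all genes were higher and 1.31% lower). At an unadjusted p under 0.05 it counted 7, and DESeq2 called 0.

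The monocyte treatment was compared next, Mono+MCTR3 against Mono with 4 mice each, and no member passed the test in any class. The member share in neutrophils was 1.209%, 1.254%, 1.271% and 1.138% in Mono mice 1 to 4 and 1.177%, 1.126%, 1.239% and 1.157% in Mono+MCTR3 mice 1 to 4. In MDM it was 2.793%, 2.496%, 2.524% and 2.287% in Mono and 2.705%, 2.641%, 2.869% and 2.954% in Mono+MCTR3. The groups overlapped in both classes. The group means were 1.218% ± 0.0593 and 1.175% ± 0.0473 (SD) in neutrophils, and 2.525% ± 0.207 and 2.792% ± 0.144 in MDM. Mono+MCTR3 minus Mono was thus -0.0433 percentage points in neutrophils and 0.268 in MDM. The MDM value rests on 31, 91, 8 and 6 cells in the Mono+MCTR3 mice and on 44, 33, 55 and 83 in the Mono mice, and on a nonclassical monocyte cluster with 42 Mono and 6 Mono+MCTR3 cells. In the macrophage cluster alone the difference was 0.24. The differences in B cells (0.00996), T cells (-0.0277) and NK cells (-0.0278) were each smaller than the larger of the group SDs.

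Within neutrophils the stages differed more than the groups. In mature cells the share was 1.254%, 1.239%, 1.248% and 1.201% in Mono and 1.201%, 1.194%, 1.289% and 1.165% in Mono+MCTR3. In the inflammatory stage it was 1.559%, 1.510%, 1.599% and 1.502% in Mono and 1.562%, 1.235%, 1.540% and 1.524% in Mono+MCTR3, where mouse 2 stood below all others. In the stefin-high stage it was 1.006%, 0.987%, 1.019% and 0.935% against 0.983%, 0.942%, 1.062% and 0.925%. The groups overlapped in each of these stages. The inflammatory cluster held 948 Mono and 606 Mono+MCTR3 cells, and the share of this stage in the neutrophil value was not tested.

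In neutrophils 0 of 75 tested members were called by the edgeR quasi-likelihood test with Benjamini-Hochberg adjustment, 0 also at an unadjusted p under 0.05, and the lowest adjusted p of a member was 0.993. Of all 5352 genes 0.0187% were called, which is 1 gene. The members' log2 fold changes ran from -0.23 to 0.59 with a median of 0.03. Ndufa9, an accessory subunit near the quinone site, was at 0.100, 0.116, 0.0894 and 0.113 UMIs per 10,000 in Mono and 0.153, 0.166, 0.192 and 0.0615 in Mono+MCTR3, and the groups overlapped through the last mouse (0.59 ± 0.29, SE). Ndufs1 (0.40) and Ndufa11 (0.32) followed, and Atp5g1 (-0.23), Atp5d (-0.22) and Ndufs7 (-0.13) were at the lower end. Atp5d, the delta subunit of the central stalk, was at 1.17, 1.18, 1.39 and 1.17 in Mono and 1.06, 1.01, 1.04 and 0.888 in Mono+MCTR3, without overlap. With 4 mice per group, values without overlap also arise by chance in some genes, here and in the other classes.

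**Figure D5:**
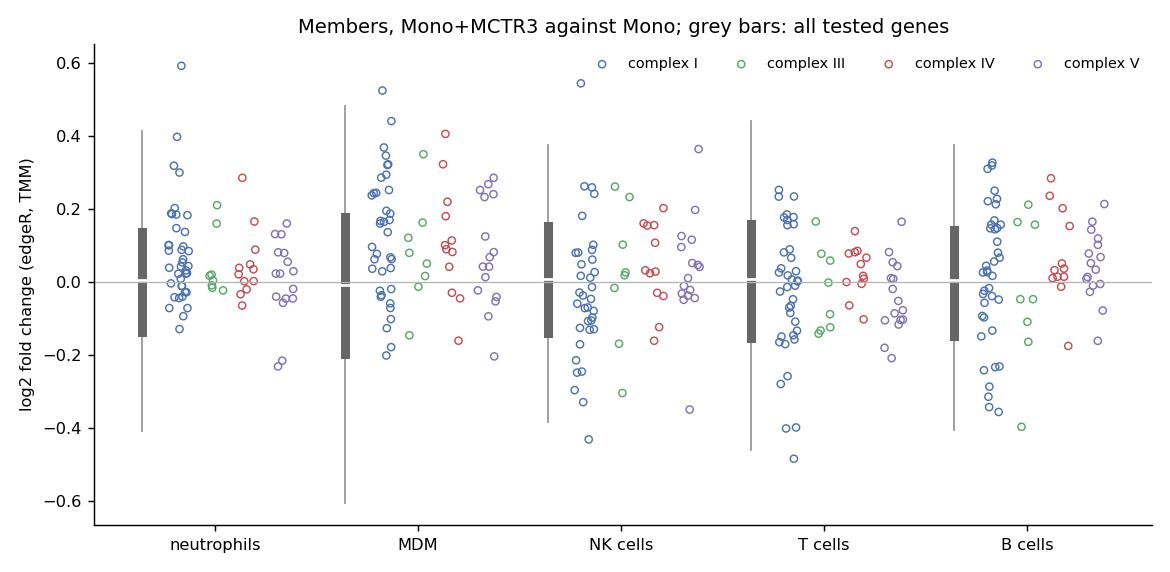
Log2 fold change (edgeR, TMM) of Mono+MCTR3 against Mono for each tested member, 1 open point per gene coloured by complex, in each cell class, with grey bars for all tested genes as in the plot of stage contrasts. The members of neutrophils ran from -0.23 to 0.59, and no member of any class passed the test.

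In MDM 0 of 73 members were called and 0% of 2871 genes, with 3 members at an unadjusted p under 0.05. These were Ndufc1, Cox7b and Cox8a. Chance alone puts a fraction of 0.05 of tests under this limit, which also holds for the unadjusted counts in B, T and NK cells. Cox8a was at 7.92, 7.45, 7.20 and 7.02 UMIs per 10,000 in Mono and 9.36, 8.57, 12.1 and 9.17 in Mono+MCTR3 (log2 fold change 0.32). Cox7b, a membrane subunit of complex IV, was at 3.45, 2.71, 2.43 and 3.24 against 3.66, 4.04, 4.71 and 4.29 (0.40). Both were without overlap, and every adjusted p of a member was at least 0.815 (edgeR quasi-likelihood test). Ndufc1, a small membrane arm subunit, overlapped at 1.59, 1.24, 0.949 and 1.02 against 1.56, 1.77, 2.72 and 1.37 (0.52 ± 0.23). Ndufb3 (0.44) came next by size, and Atp5c1 (-0.20), Ndufs8 (-0.20) and Ndufaf7 (-0.18) were lowest.

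The lymphocyte classes gave 0 called members as well, by the same edgeR test. In B cells 0 of 75 were called and 0% of 3935 genes, with 2 members at an unadjusted p under 0.05. Uqcr10, a small complex III subunit, was at 1.91, 2.80, 2.11 and 2.23 in Mono and 1.5, 1.71, 1.64 and 1.74 in Mono+MCTR3, without overlap (-0.40 ± 0.14, adjusted p = 0.957, edgeR). Ndufb2 (0.33), Ndufb11 (0.32) and Ndufv2 (0.31) were highest, and Ndufa12 (-0.36) and Ndufa9 (-0.34) came after Uqcr10 at the lower end. In T cells 0 of 74 were called and 0% of 3435 genes, with 1 at an unadjusted p under 0.05 (Ndufa11, -0.40). Ndufc2 (0.23) and Ndufa3 (0.23) were near the upper end of the T cell order, and Ndufs1 (-0.49), Ndufb6 (-0.40) and Ndufa11 were at the lower end.

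In NK cells 0 of 71 members were called by edgeR and 0% of 2230 genes, with 4 at an unadjusted p under 0.05 (Ndufab1, Atp5g2, Atp5k and Uqcrh). Ndufab1, the mitochondrial acyl carrier protein, was at 0.649, 0.771, 0.737 and 0.791 in Mono and 1.30, 0.955, 1.37 and 0.853 in Mono+MCTR3, without overlap (0.54). Atp5g2 was at 2.81, 3.60, 3.12 and 3.23 against 4.62, 4.14, 4.21 and 3.48 (0.36). Ndufa5 (0.26) came next, and Ndufa12 (-0.43), Atp5k (-0.35) and Ndufb4 (-0.33) were lowest. DESeq2 called 0 members in every class, and over all genes it called 4 in neutrophils, 2 in MDM and 0 in B, T and NK cells. The edgeR likelihood ratio test also called 0 members, and over all genes it called 4 in neutrophils, 18 in MDM, 2 in B cells, 1 in T cells and 0 in NK cells. No mt- gene was called in any of the 5 classes by edgeR, with 10 to 12 tested in each.

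Genes around the members were taken from lists of related pathways. Of the 12 tested genes of the tricarboxylic acid cycle, 2 were higher and 8 lower in neutrophils than in T cells on the TMM scale. Of all genes 40.2% were higher and 42.4% lower in this comparison, which also serves the lists that follow. Mdh2, malate dehydrogenase, was at 2.60 to 3.05 UMIs per 10,000 against 1.67 to 2.85 (log2 fold change 1.33), while Idh3g (-0.37) and Suclg1 (-1.10) were lower. Of the 4 genes of complex II, the succinate dehydrogenase that feeds the same chain without moving protons, Sdhd (1.54) and Sdhb (0.58) were higher, and Sdha (-0.86) and Sdhc (-0.64, named to complete the list) were lower. Among 12 tested assembly factors outside the name rule 4 were higher and 7 lower. Cox17, a copper chaperone for complex IV, was at 4.58 to 6.11 against 1.60 to 2.18, without overlap, a log2 fold change of 2.44, and Atpif1 (1.59) and Cox14 (1.23) were the other most counted. Cox17 also ran from 1.76 to 3.10 in precursors to 5.71 to 6.76 in mature and 8.76 to 14.4 in inflammatory cells. Of 5 carriers and cytochrome c, Slc25a3 (0.55) and Ucp2 (1.08) were higher and Slc25a5, an ADP/ATP carrier, was lower (-0.50), as was its paralog Slc25a4 (-5.79, chosen after its values were seen). As UMIs per 10,000, Sdhb, Ucp2, Cox14, Sdhd and Atpif1 overlapped between the classes, and Slc25a3 had the lower median in neutrophils (2.48 against 3.34), so that these directions hold on the TMM scale. Of the regulators of mitochondrial biogenesis 2 were tested. Tfam, which packages and transcribes mitochondrial DNA, was lower (-3.31, at 0.0102 to 0.0264 against 0.0948 to 0.476), and Nrf1 (-0.27) did not pass. No gene of these lists was called between Mono+MCTR3 and Mono in any class.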

How the data were processed

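Each group has 1 deposited table of raw UMI counts, with genes as rows and cell barcodes as columns. The authors made it with Cell Ranger, which aligns with STAR, on GRCm38. The submitters' processing notes also name edgeR, with versions not given in the sources used here. Aggregation by Cell Ranger had joined the mice of a group, each group apart, so any levelling of depth applies within a group. Cells needed 250 to 3000 genes, a minimum of 500 UMIs and no more than 5% mt- UMIs. They were clustered with Seurat 5.3.0 on 2000 variable genes without the 12 that are members or mt- genes, using 20 principal components and resolution 0.5. Scrublet (scanpy 1.11.5) called 52 doublets (0.507%), which were kept, and their removal was an alternative. Clusters were named by marker lists, and the naming rule and the division of small mixed clusters were set after seeing the data.

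Counts were summed per mouse and class or stage, scaled by TMM and tested with the quasi-likelihood test of edgeR 4.0.16 over all genes that passed its filter on low counts, with Benjamini-Hochberg adjustment and a threshold of 0.05. DESeq2 1.42.0 was an alternative. Fits between classes or stages had the mouse as a term. The fits were tested on simulated data. Percents of UMIs are given without a test. Mice are told apart by barcode suffix, and p-values between Mono+MCTR3 and Mono measure the spread between mice. Those between classes or stages measure the spread that is left once differences between mice are taken out. The members and gene lists were chosen with earlier results of these data known. Genes were named by rule: the 3 members with the most UMIs per complex, any member called between groups, the 3 highest and 3 lowest fold changes in precursor against mature cells, neutrophils against T cells and each group comparison, all isoform families, and up to 3 genes per pathway list; 1 gene is not reported here. Promoters are RefSeq sequences of GRCm38.p6.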

Additional observations from a re-analysis of the deposited data

Results flagged for a closer look

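In the inflammatory neutrophil stage the member share of mouse 2 of Mono+MCTR3 was 1.24% of UMIs, and the nearest mouse of its group was at 1.52%. The gap took a fraction of 0.884 of the range of the 4 mice, above the 95% critical value of Dixon's test for 4 values. Of 42 groups of 4 values examined this was the only 1 marked, and chance marks about 1 in 20. The same mouse had the highest mt- share of its group in this stage, 0.264%.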

How the results depend on the processing

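No paired analysis was possible because the labels give the groups no shared replicate numbers. For the counts of members called between Mono+MCTR3 and Mono, all 86 alternatives gave 0, and for neutrophils against the other classes all 68 stayed within 1.5 times, although their direction turned with the scaling. For the stages 85 of 98 did. With library totals and with totals without ribosomal protein and mt- genes the counts were 50 and 57 for precursor against secondary-granule cells, 39 and 41 for stefin-high against mature cells and 35 and 40 for inflammatory against mature cells. The last count was 4 without the filter on low counts, 4 at resolution 1.0, and 5 to 10 when single mice were left out (5 without mouse 4 of Mono). For interferon against mature cells it was 2 without the filter, 2 at a limit of 10% mt- UMIs, 23 with members and mt- genes kept for clustering, and 0 to 1 without single mice. Without ribosomal protein and mt- genes in the denominator the group difference in member share was 0.0951 in B cells and 0.0393 in T cells, and the share itself was 3.41% in MDM, 2.44% in B cells, 3.30% in T cells and 2.97% in NK cells. Without the 20 most counted genes the share was 2.35% in neutrophils, 3.08% in MDM, 2.01% in B cells, 2.01% in T cells and 2.53% in NK cells. Leaving out single mice moved the MDM group difference between 0.188 and 0.357, and turned its sign in T cells (-0.0556 to 0.0125) and NK cells (-0.0672 to 0.0191). Of 294 values for single genes 289 kept direction and call. Ndufb7 and Ndufaf7 turned to -0.025 and -0.036 in neutrophils against T cells with totals without ribosomal protein and mt- genes, where Ndufb9 lost its call. At resolution 1.0 Ndufb9 and Cox8a lost theirs between the secondary-granule and stefin-high stages. The cause was not tested. Contrasts with precursors could not be run at 10% mt- UMIs, nor those with secondary-granule, inflammatory or interferon cells at resolution 0.3, as no cluster bore those names. Depth limits the precursor stage (45 cells) and members with few UMIs.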
